A study of Mus musculus with 6 samples.

Results

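The TRIM family of ubiquitin ligases was followed in CT26 tumors of mice that received the kinase inhibitor H89 or its NaCl vehicle. Members were all genes of the table whose symbol is Trim followed by a number, 69 of 23557 genes. They were divided into 16 members listed as induced by interferon and 53 others. This list came from general knowledge and was written with earlier results of these data known. In the H89-treated tumors, each of the 14 interferon-induced members with enough counts to be tested had a log2 fold change above 0 against NaCl, with a median of 0.73. Among all genes tested, 50.6% were above 0. Trim14, Trim21, Trim25 and Trim26 alone had a median of 0.29. Of the 14, 9 are neighbours in 1 cluster on chromosome 7, some of them close copies. None of the 14 had an adjusted p under 0.05 with edgeR or limma, whereas DESeq2 called 7 (and 696 of all 13118 genes higher). The 33 other tested members had a median of 0.04, and 2 of them, Trim39 and Trim24, rose with an edgeR adjusted p under 0.05 (1.59% of all genes tested passed, in either direction). Both calls were lost with limma and with any 1 tumor left out.

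CT26 cells come from a chemically induced colon carcinoma of a BALB/c mouse, and H89 inhibits protein kinase A along with several other kinases. All mice were BALB/c, 7 weeks old, and carried tumors grown from 500000 CT26 cells injected under the skin. The NaCl group of 3 tumors received NaCl intraperitoneally and the H89 group of 3 tumors received H89 at 10 mg/kg in NaCl by the same route, 2 times a week from day 6, and all tumors were taken on day 14. Total RNA of whole tumors was sequenced, so tumor cells, stroma and infiltrating leukocytes were measured together. The total of estimated counts was 29067921, 27067349 and 27883614 in NaCl tumors 1, 2 and 3 and 28548727, 31958793 and 30936962 in H89-treated tumors 1, 2 and 3. Values are given as counts per 1000000 of these totals (CPM), always in this order of tumors, and 1 count was 0.0313 CPM in the largest and 0.0369 CPM in the smallest library. CPM is not scaled for gene length, so levels of different genes are compared per kilobase of transcript, and the share of a gene in a sum of CPM also depends on its length.

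TRIM proteins share a tripartite motif made of a RING domain, which recruits the ubiquitin-conjugating enzyme, 1 or more B-box domains and a coiled coil that lets them pair. The C-terminal part differs between members and sets what each protein binds, such as the PRY-SPRY domain of the antiviral members or the PHD finger and bromodomain of the chromatin regulators. Many members are transcribed in response to interferons, and several of these restrict viruses or attach ubiquitin to proteins of the RNA and DNA sensing pathways.

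The promoters of the members were read first, since interferon-induced genes often carry the interferon-stimulated response element. RefSeq gave 67 promoters on GRCm38.p6 for 53 of the 69 members, each running from 250 bases before to 50 bases after a transcript start. No entry was found for Trim3, Trim8, Trim11, Trim14, Trim16, Trim17, Trim29, Trim30e-ps1, Trim33, Trim35, Trim36, Trim43b, Trim43c, Trim50, Trim55 and Trim65. The core of the element, GAAANNGAAA on either strand (TTTCNNTTTC when read from the other strand), was found in 3.44% of all 32851 promoters and in 1079 of 27025 genes (3.99%). It was present in 8 of the 15 interferon-induced members with a promoter entry (53.3%), namely Trim5, Trim12a, Trim12c, Trim21, Trim26, Trim30a, Trim30d and Trim34a. Of the 38 other members with an entry, 1 held it (2.63%), Trim2, which codes for a neuronal ligase with NHL repeats. Among well known interferon-stimulated effector genes, such as Isg15 and Ifit1, 10 of 20 with an entry held it (50%). Of the 8 interferon-induced members, Trim5, Trim12a and Trim12c have the same letters at and beside the match. So do Trim30a and Trim30d, and these promoters are not independent.

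Of the interferon-induced members, 6 hold the motif and were higher in H89-treated tumors at an unadjusted p under 0.05 (13.1% of all genes tested were higher at this level). Trim6 and Trim34b were also higher at this level, with no match in their promoter entries. Trim26 holds the motif but did not reach this level, and Trim5 holds it but had 0 counts in every tumor. Whether motif and difference go together was not tested. The promoters of 4 of the 6 are shown here, without those of Trim12a and Trim30d, which are relatives of Trim12c and Trim30a. Capitals mark GAAANNGAAA on either strand, and each sequence is written 5′ to 3′ along the strand of its gene. The Trim21 promoter, chr7:102565433-102565732 on the minus strand, holds 2 overlapping matches that start 13 and 19 bases after the transcript start. The match of Trim12c, chr7:104353300-104353599 on the minus strand, starts 29 bases before it, and that of Trim30a, chr7:104465144-104465443 on the minus strand, 36 bases before it. A second promoter entry of Trim30a, chr7:104446076-104446375, has its match 2 bases after the start. Trim34a, chr7:104244207-104244506 on the plus strand, has its match 10 bases after the start.
Trim21: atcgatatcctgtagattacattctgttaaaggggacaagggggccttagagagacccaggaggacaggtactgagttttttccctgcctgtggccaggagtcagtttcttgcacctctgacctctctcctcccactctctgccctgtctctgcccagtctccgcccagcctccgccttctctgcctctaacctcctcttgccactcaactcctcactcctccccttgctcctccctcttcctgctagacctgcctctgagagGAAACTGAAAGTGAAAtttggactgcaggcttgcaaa
Trim12c: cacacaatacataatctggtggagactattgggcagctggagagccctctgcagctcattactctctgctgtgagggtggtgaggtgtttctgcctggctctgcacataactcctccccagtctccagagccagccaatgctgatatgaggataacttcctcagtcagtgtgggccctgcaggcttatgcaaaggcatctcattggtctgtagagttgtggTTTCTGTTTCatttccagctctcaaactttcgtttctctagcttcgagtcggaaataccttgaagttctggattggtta
Trim30a: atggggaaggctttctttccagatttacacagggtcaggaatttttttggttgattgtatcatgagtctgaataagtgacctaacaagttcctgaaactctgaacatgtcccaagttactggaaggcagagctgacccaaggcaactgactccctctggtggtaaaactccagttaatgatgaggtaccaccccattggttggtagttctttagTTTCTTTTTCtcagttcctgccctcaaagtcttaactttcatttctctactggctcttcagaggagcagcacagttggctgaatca
Trim34a: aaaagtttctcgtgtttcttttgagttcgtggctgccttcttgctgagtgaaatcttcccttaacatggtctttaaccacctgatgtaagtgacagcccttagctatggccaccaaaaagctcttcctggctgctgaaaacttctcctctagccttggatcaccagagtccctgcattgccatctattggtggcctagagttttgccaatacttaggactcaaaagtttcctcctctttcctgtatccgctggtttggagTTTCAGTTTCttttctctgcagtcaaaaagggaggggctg

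A match describes the letters of this window and does not show that a factor binds there. The gamma-activated site TTCNNNGAA, which reads the same on both strands, was present in 8.30% of all promoters and in 9.55% of genes. It was found in 2 of 15 interferon-induced members (13.3%), Trim30c and Trim38, and in 4 of 38 others (10.5%), Trim15, Trim31, Trim45 and Trim46. Of the effector genes, 5 of 20 held it (25%). In 24 of all promoters a match of this motif shared a base with a match of GAAANNGAAA. The cAMP response element TGACGTCA, also the same on both strands and bound by CREB, a substrate of protein kinase A, was present in 1.79% of all promoters and among members in those of Trim26 and Trim52.

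Of the 69 members, 47 had a mean of at least 0.5 CPM over the 6 tumors and were tested, 14 interferon-induced and 33 others. The question was whether H89 treatment went with a different RNA level of each gene, and it was addressed with the quasi-likelihood test of edgeR over all 13118 genes that passed this filter, with TMM scaling, which corrects library size for differences in composition, followed by Benjamini-Hochberg adjustment over all of them. Its result is called the edgeR adjusted p, and each log2 fold change, H89 over NaCl, is given with its standard error. For single values an exact two-sided permutation test was also run, whose smallest possible p with 3 against 3 tumors is 0.1. The tests measure the spread between these 6 tumors, which came from 3 mice per group.

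Across the whole table, 208 of 13118 genes (1.59%) had an edgeR adjusted p under 0.05, 113 of them higher and 95 lower in H89-treated tumors. Leaving out any 1 of the 6 tumors left between 0 and 12 genes, limma gave 0, and DESeq2 gave 1396, 696 of them higher. With scaling to the total count in place of TMM, 131 of 164 such genes were higher. Among the 47 TRIM members, 2 passed, both higher, and neither did when any 1 tumor was left out. At an unadjusted p under 0.05, 12 members were higher and 2 were lower, against 13.1% and 11.9% of all genes tested. The CPM of all 3 H89-treated tumors lay above all NaCl tumors for 21 members and below for 2, while this held for 20.5% and 10.0% of all genes tested. Trim71 passed the filter only through its level in H89-treated tumors. Without it, 11 of 46 members were higher at an unadjusted p under 0.05, and by CPM 20 were above and 2 below. With TMM scaling, 13 of these 46 were above and 4 below, beside 15.2% and 15.5% of all genes. Of all genes, 50.6% had a log2 fold change above 0, and of the 47 members 32 did.

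The summed level of the family differed between the groups by less than the spread within them. Its 69 genes added up to 2205, 2134 and 1978 CPM in NaCl tumors and to 2214, 2100.3 and 2303 CPM in H89-treated tumors, a ratio of 1.05 with an exact permutation p of 0.4. Scaled by TMM, the ratio was 0.998. The interferon-induced members added up to 377, 385 and 324 CPM in NaCl tumors and to 490.2, 393 and 582 CPM in H89-treated tumors. The ratio of the means was 1.35 and the exact permutation p was 0.1, the smallest possible. This separation was lost with TMM scaling, where H89-treated tumor 2 (382) lay within the NaCl values (394.6, 389 and 329.8), the ratio was 1.28 and the exact permutation p was 0.3. The other members added up to 1828, 1749 and 1654 CPM against 1724, 1708 and 1721 CPM, with a ratio of 0.985 and an exact permutation p of 0.7 (0.938 and 0.2 with TMM scaling). In whole tumors, fewer cells of a type and less RNA per cell cannot be told apart.

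All 14 tested interferon-induced members were higher in H89-treated tumors by their log2 fold change, from 0.12 for Trim56 to 1.16 for Trim34a, with quartiles of 0.41 and 0.86. Of these, 8 had an unadjusted p under 0.05 (13.1% of all genes tested were higher at this level), and 10 had all H89-treated tumors above all NaCl tumors (20.5% of all genes). With TMM-scaled values 7 of the 14 remained free of overlap, without Trim14, Trim21 and Trim30a, beside 15.2% of all genes. With quantile-normalized values it was 5 of the 14, beside 11.6% of all genes. Without H89-treated tumor 1, 5 of them had an unadjusted p under 0.05. None of the 14 had an edgeR adjusted p under 0.05 or one from limma. DESeq2 called 7 of them, and 696 of all 13118 genes higher. The mean log2(CPM + 0.5) of the list was 3.31, 3.43 and 3.11 in NaCl tumors and 3.96, 3.62 and 4.10 in H89-treated tumors. H89-treated tumor 2 was thus the nearest to the NaCl tumors and NaCl tumor 3 the lowest of all. The difference of 0.61 compares with an SD of 0.16 among NaCl tumors and 0.25 among H89-treated tumors (n = 3 each), and with a difference of 0.11 for all genes tested.

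**Figure D1:**
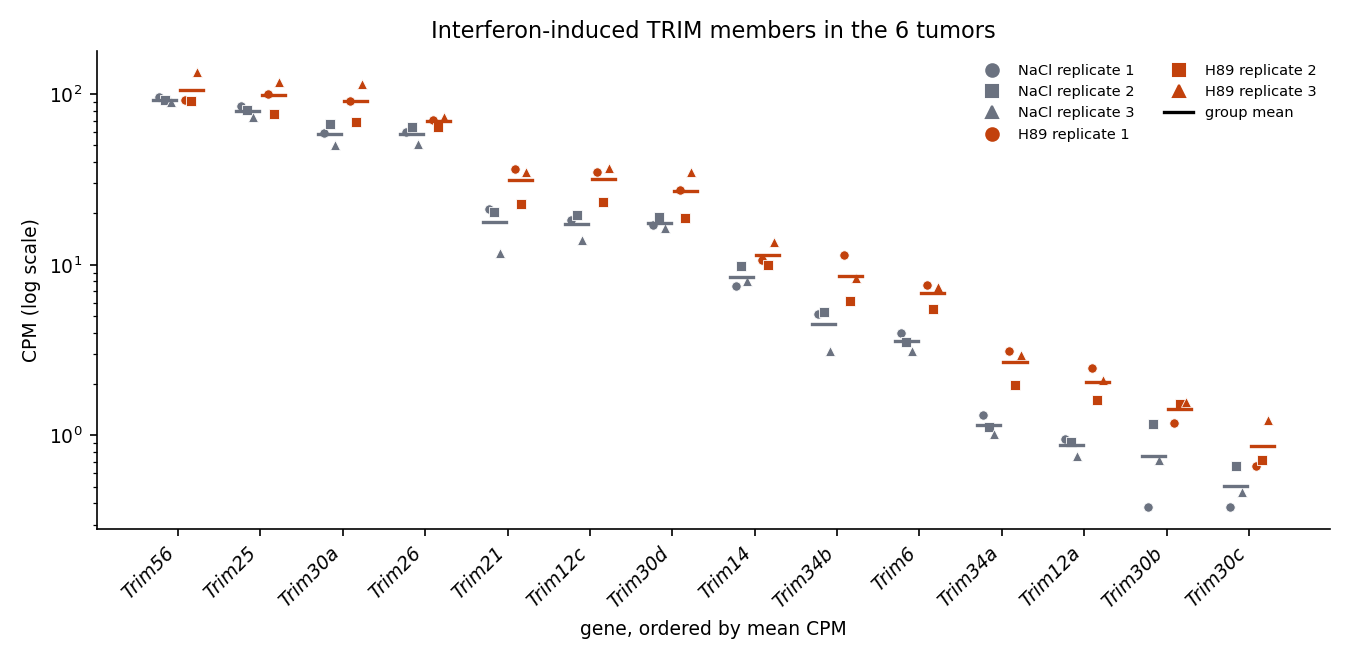
CPM on a log axis of the 14 tested interferon-induced TRIM members, in order of mean CPM, with a point for each of the 3 NaCl and 3 H89-treated tumors and a line at each group mean. For 10 members all H89-treated tumors lie above all NaCl tumors by CPM (7 when scaled by TMM), and for Trim25, Trim26, Trim30d and Trim56 the groups overlap.

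Trim21 is a cytosolic antibody receptor that directs antibody-coated viruses to the proteasome, and it also adds ubiquitin to several IRF factors. The gene lies at chr7:102557921-102565486 (GRCm38, minus strand). It reached 21.3, 20.3 and 11.8 CPM in NaCl tumors and 36.3, 22.7 and 35.0 CPM in H89-treated tumors. By CPM the groups did not overlap, but NaCl tumor 1 and H89-treated tumor 2 were close, and with TMM scaling they overlapped (22.3 and 22.1). The log2 fold change was 0.75 ± 0.26 with an edgeR adjusted p of 0.139.

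Trim14, a mitochondrial adaptor of RIG-I signalling that lacks a RING domain, was at 7.55, 9.80 and 8.02 CPM in NaCl and 10.6, 9.92 and 13.7 CPM in H89-treated tumors. NaCl tumor 2 and H89-treated tumor 2 differed by little and overlapped with TMM scaling (9.90 and 9.64), and the edgeR adjusted p was 0.213 for a log2 fold change of 0.36 ± 0.16 (0.24 without H89-treated tumor 3 and 0.23 with limma on quantile-normalized values). Exons of Trim14 overlap those of Nans, Gm16731 and Gm22247, and it is not known whether counting took the strand into account.

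Trim25, the ligase that adds K63-linked ubiquitin chains to RIG-I, lies at chr11:88999376-89020293. Its level was 85.6, 80.5 and 73.5 CPM in NaCl and 100.3, 76.7 and 117 CPM in H89-treated tumors, where tumor 2 was within the NaCl range. Trim26, at chr17:36837134-36859398 among several TRIM genes of the major histocompatibility complex region, was at 59.8, 64.2 and 50.8 CPM against 70.4, 63.7 and 73.2 CPM. Again tumor 2 of the H89 group overlapped with the NaCl tumors. The log2 fold changes were 0.22 ± 0.15 for Trim25 (edgeR adjusted p 0.379, with 2 of 3 H89-treated tumors above every NaCl tumor) and 0.18 ± 0.11 for Trim26 (edgeR adjusted p 0.341, likewise in 2 of 3). Single tumors moved both. Trim25 went to 0.11 without H89-treated tumor 3 and 0.38 without H89-treated tumor 2, and Trim26 to 0.08 without NaCl tumor 3.

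Trim56, which has been linked to signalling from the DNA sensor STING, has a long transcript and made up 23.4% of the CPM of the list, but at 10.7 CPM per kilobase it ranked below Trim26, Trim30a and Trim25. It was at 96.7, 92.4 and 89.3 CPM in NaCl and 92.6, 91.5 and 134 CPM in H89-treated tumors, so that tumor 3 alone stood out. Its log2 fold change of 0.12 ± 0.14 had an edgeR adjusted p of 0.626 and turned to -0.06 without that tumor. It was 0.18 without H89-treated tumor 1, 0.21 without tumor 2 and 0.19 with total count scaling.

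The 4 best known members of the list, Trim14, Trim21, Trim25 and Trim26, had a median log2 fold change of 0.29, with 2 of 4 free of overlap by CPM and none with TMM scaling. The 10 other tested members of the list had a median of 0.83, with 8 free of overlap by CPM, 7 with TMM scaling, and 7 at an unadjusted p under 0.05. The shares of all genes tested were 20.5% above by CPM, 15.2% above with TMM scaling and 13.1% higher at an unadjusted p under 0.05. Most of the 10 are neighbours on 1 chromosome.

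A cluster of 10 members occupies 289 kb of chromosome 7, at chr7:104218793-104507849 on GRCm38. In order of position these are Trim6, Trim34a, Trim5, Trim12a, Trim34b, Trim12c, Trim30b, Trim30c, Trim30a and Trim30d, all on the interferon-induced list, and the table holds no other gene within this span. Relatives of primate TRIM5, a restriction factor that binds retroviral capsids, make up much of it. All 9 tested genes of the cluster had a log2 fold change above 0, 7 had an unadjusted p under 0.05, and 8 had all H89-treated tumors above all NaCl tumors by CPM (7 with TMM scaling). Of all genes tested, 50.6% had a log2 fold change above 0, 13.1% were higher at an unadjusted p under 0.05, and 20.5% had all H89-treated tumors above by CPM (15.2% with TMM scaling). Trim5 had 0 counts in every tumor. A further member, Trim30e-ps1, lies beyond the end of the span, at chr7:104532959-104535361. It is among the other members and was below the filter. Within 500 kb on either side, mostly olfactory receptor genes at or near 0, 3 genes were tested. These were Hbb-bt with a log2 fold change of 0.08, Hbb-bh1 with -0.60 and Usp17la with -0.66. Of the 3, 1 had an unadjusted p under 0.05, Usp17la, with all H89-treated tumors below all NaCl tumors by CPM and an edgeR adjusted p of 0.105.

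At the first end of the cluster, Trim6, a ligase that makes unanchored ubiquitin chains for the interferon pathway kinase IKK-epsilon, was at 3.99, 3.55 and 3.13 CPM in NaCl and 7.61, 5.49 and 7.45 CPM in H89-treated tumors. Every H89-treated tumor was above every NaCl tumor, with a log2 fold change of 0.87 ± 0.20 and an edgeR adjusted p of 0.0706, the lowest of the list. Trim34a was at 1.31, 1.12 and 1.02 CPM against 3.13, 1.97 and 2.96 CPM. Its log2 fold change of 1.16 ± 0.27 had an edgeR adjusted p of 0.0722, with all H89-treated tumors higher, and was 0.67 with limma on quantile-normalized values. Its exons overlap those of Gm47248.

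Trim34b, its close copy, was at 5.13, 5.27 and 3.13 CPM in NaCl and 11.3, 6.17 and 8.36 CPM in H89-treated tumors, and the lowest of the H89 group, tumor 2, was still above the highest NaCl tumor. The log2 fold change was 0.87 ± 0.29 and the edgeR adjusted p 0.129. Trim34a and Trim34b had 48.8% and 69.0% of the 31-base runs (words) of their transcripts in common with another member, so that reads can be divided between them in more than 1 way. Their sum, which does not depend on that division, was 6.45, 6.39 and 4.14 CPM in NaCl and 14.5, 8.14 and 11.3 CPM in H89-treated tumors. The log2 ratio of the sums was 1.00 with no overlap and an exact permutation p of 0.1.

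Trim12a and Trim12c are both relatives of Trim5. Trim12a was at 0.955, 0.920 and 0.755 CPM in NaCl and 2.48, 1.61 and 2.10 CPM in H89-treated tumors, and Trim12c at 18.3, 19.5 and 13.9 CPM and 34.7, 23.4 and 36.8 CPM. For both, all H89-treated tumors were above all NaCl tumors. The log2 fold change was 1.16 ± 0.27 for Trim12a (edgeR adjusted p 0.0722, and 0.60 with limma on quantile-normalized values) and 0.81 ± 0.20 for Trim12c (edgeR adjusted p 0.0790). Trim12c shares 38.7% of its transcript words with Trim5 and overlaps exons of Gm27995, and whether its counts include RNA of these genes was not tested. Summed, Trim12a and Trim12c gave 19.3, 20.4 and 14.7 CPM against 37.2, 25.0 and 38.9 CPM, a log2 ratio of 0.90 (exact permutation p 0.1).

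Trim30a, known for lowering NF-kappa-B signalling after Toll-like receptor stimulation, was the most abundant gene of the cluster per base of transcript. It was at 58.8, 66.4 and 50.6 CPM in NaCl and 91.4, 68.3 and 114 CPM in H89-treated tumors, with tumor 2 of the H89 group just above NaCl tumor 2. With TMM scaling it was just below it (66.3 against 67.1). The log2 fold change was 0.56 ± 0.18 and the edgeR adjusted p 0.113. Trim30d, at 17.2, 19.2 and 16.5 CPM against 27.5, 18.9 and 34.8 CPM, was the 1 tested gene of the cluster whose groups overlapped by CPM, since H89-treated tumor 2 lay below NaCl tumor 2. Its log2 fold change was 0.55 ± 0.20 with an edgeR adjusted p of 0.151, and 0.36 without H89-treated tumor 3.

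The remaining copies were near the limit of the filter. Trim30b was at 0.379, 1.16 and 0.721 CPM in NaCl and 1.18, 1.54 and 1.56 CPM in H89-treated tumors, and Trim30c at 0.378, 0.665 and 0.466 CPM and 0.666, 0.720 and 1.23 CPM. For both, the H89-treated tumors were above the NaCl tumors, by a narrow margin. Their log2 fold changes of 0.84 ± 0.38 and 0.72 ± 0.36 had edgeR adjusted p values of 0.217 and 0.252. Trim30b ran from 0.53 without NaCl tumor 1 to 1.30 without NaCl tumor 2, and Trim30c was 0.42 without H89-treated tumor 3. With limma they were 0.61 and 0.40, or 0.38 and 0.19 after quantile normalization. The 4 Trim30 genes summed to 76.7, 87.4 and 68.2 CPM in NaCl and 120.7, 89.4 and 151 CPM in H89-treated tumors. Most of this was Trim30a (75.6%), the log2 ratio was 0.64, and the exact permutation p was 0.1. With TMM scaling the sums overlapped (88.2 in NaCl tumor 2 and 86.8 in H89-treated tumor 2), with a log2 ratio of 0.57 and an exact permutation p of 0.2, while those of Trim12 and Trim34 did not overlap on either scale.

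**Figure D2:**
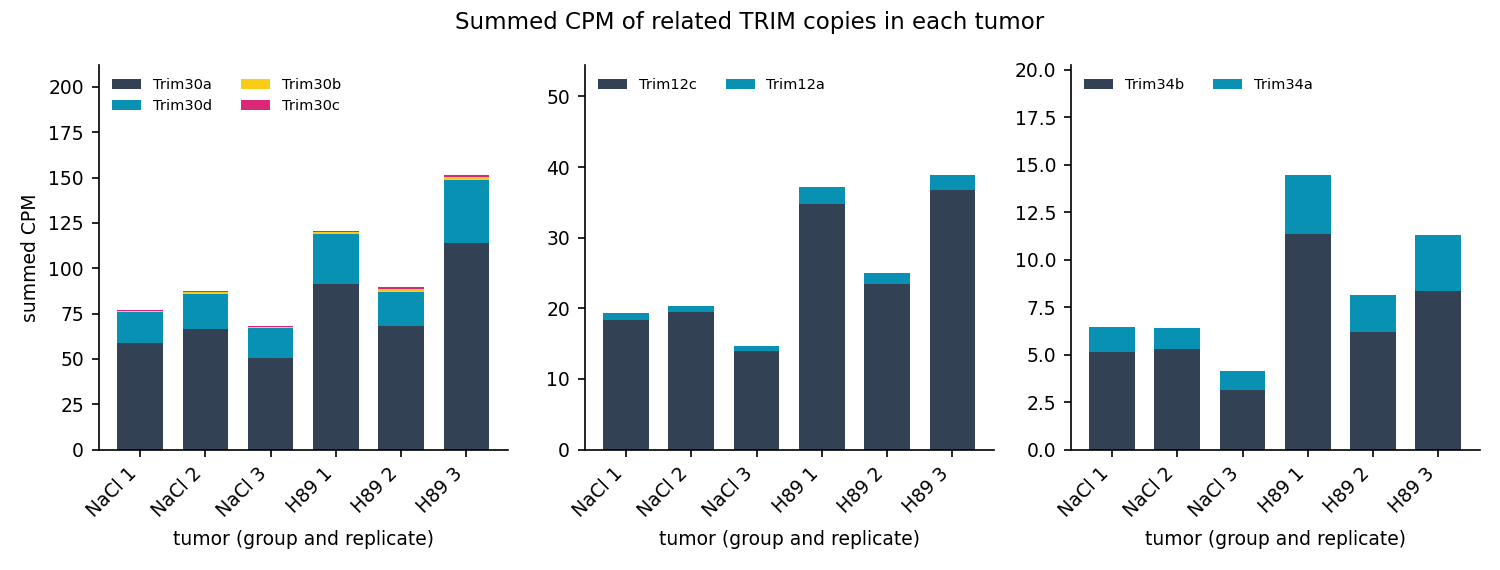
Summed CPM of related TRIM copies in each of the 6 tumors, as stacked bars with a color for each gene: the Trim30 genes on the left, Trim12a and Trim12c in the middle, Trim34a and Trim34b on the right. In each panel all H89-treated tumors are above all NaCl tumors by CPM, which holds for the middle and right panels also with TMM scaling, with log2 ratios of the means of 0.64, 0.90 and 1.00, and H89-treated tumor 2 is the lowest of its group.

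Markers of immune and stromal cells also varied between the tumors. Summed over 10 T cell markers, NaCl tumors had 81.3, 52.8 and 41.3 CPM and H89-treated tumors 91.1, 71.0 and 133 CPM. All 10 were higher by their log2 fold change, with a median of 1.19, 6 at an unadjusted p under 0.05 and none at an edgeR adjusted p under 0.05 (2 with DESeq2). Thy1 had the most counts. The share of all genes tested that were higher at an unadjusted p under 0.05 was 13.1%, and DESeq2 called 696 of 13118 higher. Cd8a was at 3.46, 2.26 and 2.93 CPM against 8.51, 3.66 and 19.2 CPM. As with the interferon-induced TRIM members, H89-treated tumor 2 was the lowest of its group and NaCl tumor 3 the lowest of all in the T cell sum, and NaCl tumor 1 overlapped with the H89 group.

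The 12 macrophage markers, with the most counts for Lyz2, summed to 2218, 3558 and 3037 CPM in NaCl and 2739.5, 2840.5 and 3631 CPM in H89-treated tumors, and these ranges overlapped, with 2 of 12 at an unadjusted p under 0.05 and none called by edgeR or DESeq2. Among all genes tested, 13.1% were higher and 11.9% lower at an unadjusted p under 0.05. DESeq2 called 1396 of the 13118, 696 of them higher. The 7 fibroblast markers, with the most counts for Col1a2, summed to 2674, 2614 and 2523 CPM against 3602, 3593 and 3057 CPM, with 4 of 7 higher at an unadjusted p under 0.05, none at an edgeR adjusted p under 0.05 and 2, Col1a2 and Col3a1, called by DESeq2. Of 8 colon epithelial markers, Epcam, Vil1, Cdx1 and Cdx2 were below the filter. The sum of the 8, with the most counts for Krt20, was 114, 109 and 122 CPM against 78.0, 95.3 and 81.8 CPM. Of the 4 tested, Krt18 (-1.04) and Krt20 (-0.47) were lower at an unadjusted p under 0.05 and by DESeq2 but not by edgeR adjusted p, and Krt8 (1.03) and Cdh1 (0.05) had log2 fold changes above 0. The part of cell composition in the TRIM results was not tested.

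Of the other cell types, the 6 B cell markers summed to 3.61, 4.42 and 4.24 CPM in NaCl and 5.10, 7.30 and 6.65 CPM in H89-treated tumors, with 3 of 6 tested and 1 of these higher at an unadjusted p under 0.05. The 7 neutrophil markers, with the most counts for Mmp9 and Ly6g at 0, summed to 42.5, 31.4 and 35.7 CPM and 34.0, 45.4 and 54.1 CPM. Of the 5 tested, 1 was higher at an unadjusted p under 0.05 (13.1% of all genes tested), Csf3r, with a log2 fold change of 0.90 ± 0.21. It was called by DESeq2, which called 696 of 13118 genes higher, but not by edgeR (edgeR adjusted p 0.0682). Cxcr2 was at 0.29, while S100a8 (-0.85), S100a9 (-0.70) and Mmp9 (-0.15) were below 0. The median log2 fold change of the 5 was -0.15. Endothelial markers summed to 91.2, 128 and 157 CPM against 79.9, 128 and 105 CPM and proliferation genes to 983, 1130.3 and 1056 CPM against 1108, 1293 and 1222 CPM. Single tumors stood out in tissue that can come with a tumor under the skin. Skeletal muscle markers summed to 8.23, 7.85 and 8.11 CPM against 32.9, 8.71 and 5.73 CPM, so that H89-treated tumor 1 held the most, with the most counts there for Acta1. Erythroid markers summed to 84.3, 64.5 and 104 CPM against 29.0, 21.9 and 235 CPM, with the most in H89-treated tumor 3. Keratinocyte markers, with Krt1, Krt15 and Dsg1a at 0, summed to 2.92, 2.29 and 3.77 CPM against 4.10, 4.82 and 3.88 CPM.

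The 33 other tested members divided more evenly, with 18 log2 fold changes above 0 and 15 below. At an unadjusted p under 0.05, 4 were higher and 2 lower, and for 11 all H89-treated tumors were above all NaCl tumors and for 2 below. The shares of all genes were 13.1% higher, 11.9% lower, 20.5% above and 10.0% below. Trim71 passed the filter only through its level in H89-treated tumors, with 0.456 CPM on average in NaCl tumors. Without it, 3 of 32 were higher at an unadjusted p under 0.05, 10 were above, and the median log2 fold change was 0.02. Without H89-treated tumor 1 the number lower at an unadjusted p under 0.05 was 4, and without NaCl tumor 1, NaCl tumor 2 or H89-treated tumor 3 it was 1. With total count scaling, 9 were higher and 1 lower, while the median log2 fold change of all genes tested went from 0.004 to 0.075. Of the 13118 genes, 3197 then had an unadjusted p under 0.05, in either direction. Scaled by TMM, the numbers free of overlap became 7 above and 4 below, beside 15.2% and 15.5% of all genes. The mean log2(CPM + 0.5) of the 33 was 4.03, 3.97 and 3.92 in NaCl and 4.08, 4.15 and 4.15 in H89-treated tumors. The difference of 0.15 was near the 0.11 of all genes tested. The median log2 fold change of 0.04 was 0.12 without NaCl tumor 1 or NaCl tumor 3 and 0.13 without H89-treated tumor 1.

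**Figure D3:**
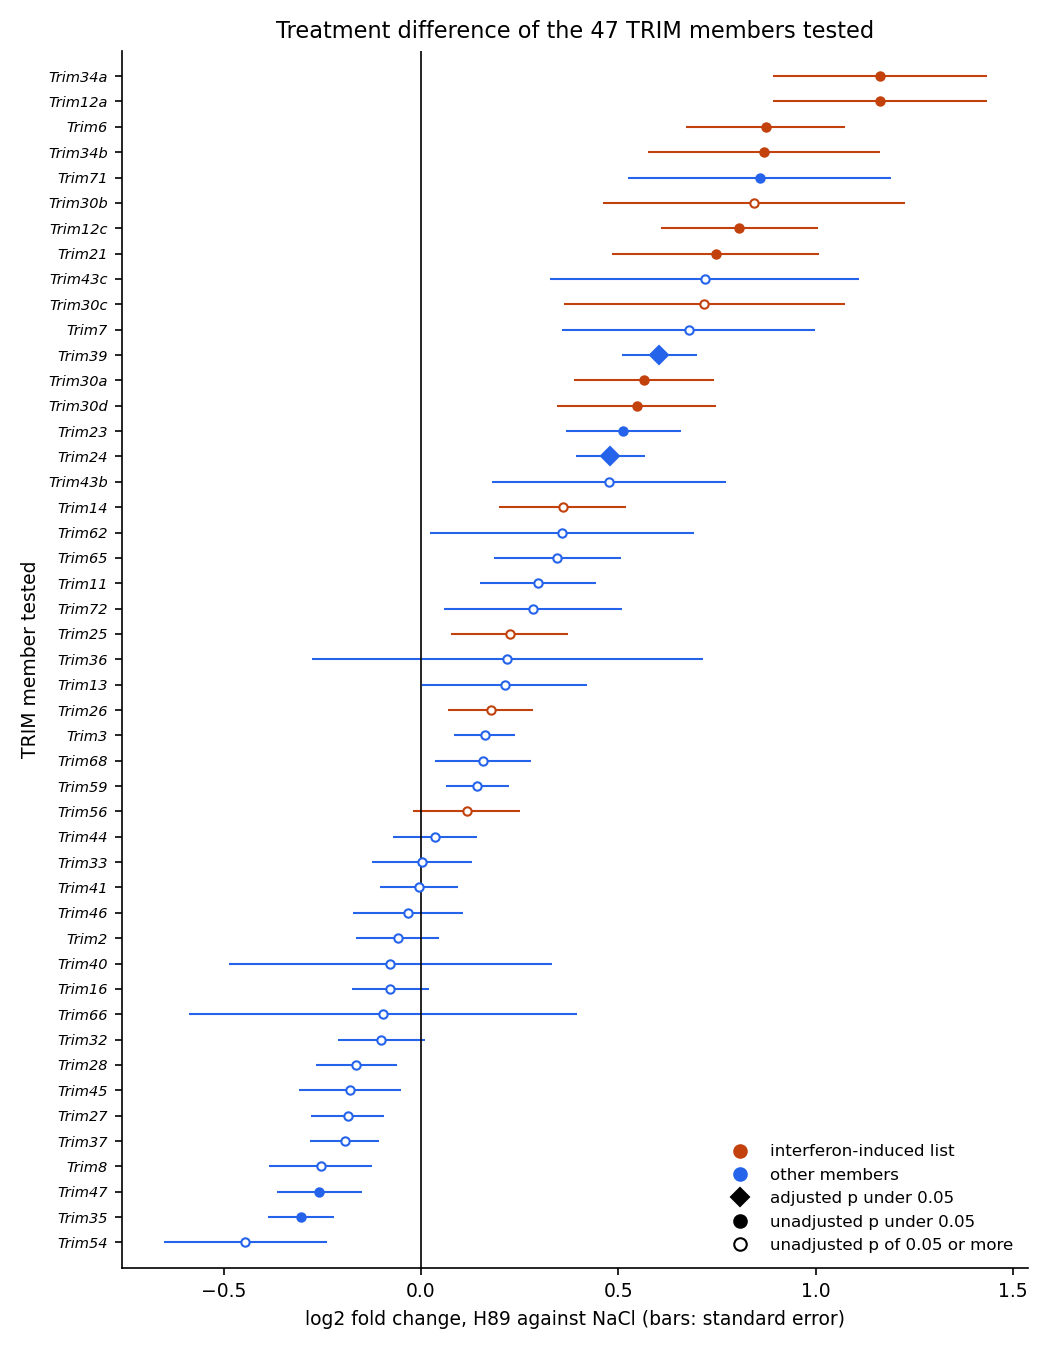
Log2 fold change of H89 against NaCl for the 47 tested TRIM members in order of size, with bars of 1 standard error from edgeR, a color for each list, filled circles for an unadjusted p under 0.05 and diamonds for an adjusted p under 0.05. The interferon-induced members lie from 0.12 to 1.16 and the others from -0.45 for Trim54 to 0.86 for Trim71, which was under 0.5 CPM on average in NaCl tumors.

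Trim39 and Trim24 were the members that passed the test. Trim39, a ligase that acts on regulators of the cell cycle and apoptosis, lies at chr17:36258873-36272247 on the minus strand, in the region of the major histocompatibility complex. Its level was 22.9, 22.6 and 22.6 CPM in NaCl tumors, 22.7 ± 0.194 on average (SD, n = 3), and 37.2, 37.3 and 33.9 CPM in H89-treated tumors, 36.1 ± 1.92 on average. Each H89-treated tumor was well above each NaCl tumor, with H89-treated tumor 3 rather than tumor 2 the lowest of its group. Trim39 rose by a log2 fold change of 0.60 ± 0.10, with an edgeR adjusted p of 0.0407. Leaving out any 1 of the 6 tumors ended this call, with adjusted p values between 0.0663 and 0.142, as did limma on log2(CPM + 0.5) (0.0590) or on quantile-normalized values (0.0857). Over all alternatives the adjusted p ran from 6.4e-05 with DESeq2 to 0.142.

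Trim24, a PHD-bromodomain protein that reads histone marks and binds nuclear receptors and p53, lies at chr6:37870811-37966296 on the plus strand. It was at 38.0, 40.0 and 36.9 CPM in NaCl tumors, 38.3 ± 1.57 on average (SD, n = 3), and at 57.0, 51.7 and 59.3 CPM in H89-treated tumors, 56.0 ± 3.91 on average. The groups were apart by several times the spread within them. Trim24 rose by 0.48 ± 0.09 on the log2 scale with an edgeR adjusted p of 0.0471, and 3 of 3 H89-treated tumors were above every NaCl tumor. This call too was lost with any 1 tumor left out (adjusted p between 0.0706 and 0.149) and with limma on log2(CPM + 0.5) (0.0696) or on quantile-normalized values (0.0929). Over all alternatives the adjusted p was between 0.000691 with DESeq2 and 0.149. Neither gene is on the interferon-induced list, neither has GAAANNGAAA in its promoter entries, and no exon of either overlaps another gene.

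**Figure D4:**
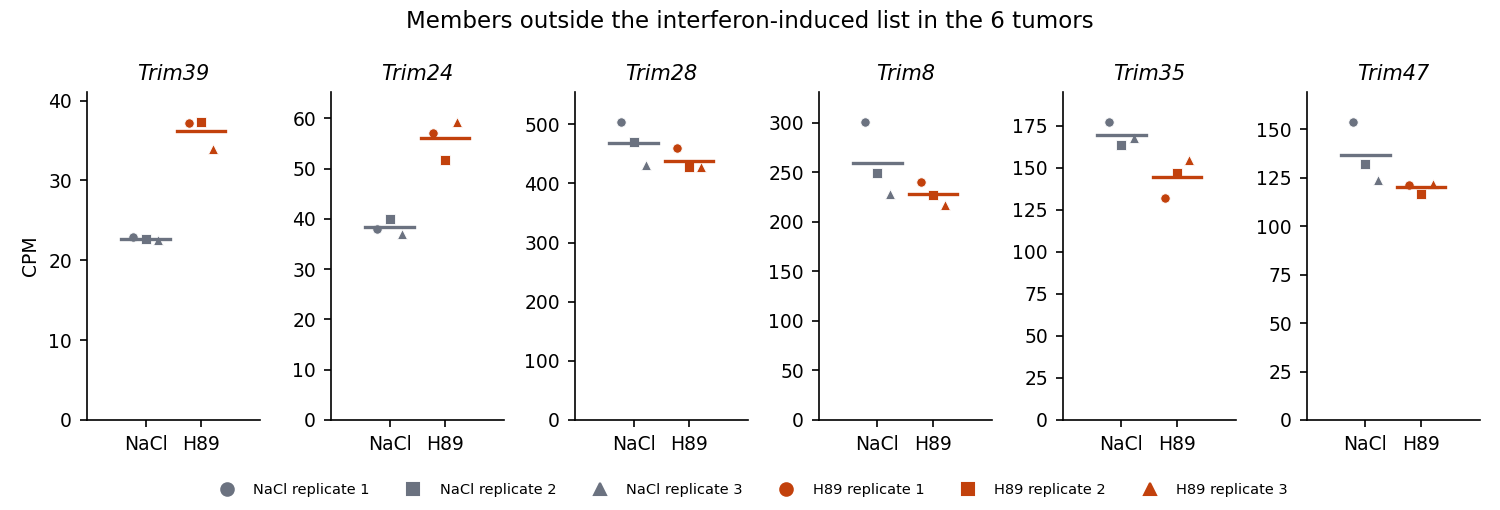
CPM of 6 TRIM members outside the interferon-induced list, with a point for each of the 3 NaCl and 3 H89-treated tumors, a line at each group mean and each axis starting at 0. Trim39 and Trim24 lie higher and Trim35 and Trim47 lower in all H89-treated tumors, and for Trim28 and Trim8 the groups overlap.

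Trim23, which joins a RING domain to an ARF-type GTPase domain, was at 9.49, 10.4 and 11.5 CPM in NaCl and 12.6, 17.1 and 17.5 CPM in H89-treated tumors. All H89-treated tumors were higher, with a log2 fold change of 0.51 ± 0.15 and an edgeR adjusted p of 0.0959. Trim71, a stem cell factor that represses messenger RNAs, was barely detected and passed the filter only by its level in H89-treated tumors, at 0.277, 0.517 and 0.574 CPM against 0.911, 0.814 and 0.873 CPM. Its log2 fold change of 0.86 ± 0.33 had an edgeR adjusted p of 0.167 with all H89-treated tumors higher, and its exons overlap those of C130032M10Rik. With limma it was 0.49, or 0.29 after quantile normalization.

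The 2 members below all NaCl tumors by CPM were among the most abundant per kilobase. With TMM scaling, Trim37 and Trim45 lay below as well, at 10.3 and 1.74 CPM per kb. Trim35, which has been tied to haematopoietic cell death and to IRF7 turnover, was at 177, 164 and 168 CPM in NaCl and 132, 147 and 154 CPM in H89-treated tumors. The log2 fold change was -0.30 ± 0.08 and the edgeR adjusted p 0.0891, and exons overlap those of 1700001G11Rik. Trim47 was at 154, 132 and 124 CPM against 121, 117 and 122 CPM. Its H89-treated tumors lay close below the lowest NaCl tumor, and the log2 fold change of -0.26 ± 0.11 had an edgeR adjusted p of 0.186 and was -0.15 without NaCl tumor 1. Exons of Trim47 overlap those of its neighbour Trim65, with which it shares 7.27% of its transcript words. The log2 fold change of Trim65 was 0.35 ± 0.16.

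Per kilobase of transcript, Trim28 was the most abundant member at 139.8 CPM per kb, followed by Trim8 at 68.1, Trim47 at 58.2, Trim35 at 42.7 and Trim59 at 29.9 CPM per kb. The highest of the interferon-induced list were Trim26 and Trim30a, both at 19.9 CPM per kb. Trim28, the corepressor that KRAB zinc finger proteins bring to chromatin and that keeps retroelements silent, was at 504, 470.1 and 431 CPM in NaCl and 459.5, 428 and 428 CPM in H89-treated tumors. The groups overlapped, the log2 fold change was -0.16 ± 0.10, and the edgeR adjusted p was 0.354. With limma on quantile-normalized values the sign turned, to 0.02, while limma on log2(CPM + 0.5) gave -0.16. Without NaCl tumor 1 it was -0.09 and with total count scaling -0.10.

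Trim8, known for raising STAT3 and NF-kappa-B activity, was at 301, 249 and 228 CPM in NaCl and 240.4, 228 and 217 CPM in H89-treated tumors, with a log2 fold change of -0.25 ± 0.13 (edgeR adjusted p 0.265). It was -0.12 without NaCl tumor 1 and -0.14 with limma on quantile-normalized values. Trim27, which forms a ubiquitin ligase with MAGE proteins, was at 90.6, 100.5 and 88.2 CPM against 90.5, 81.3 and 85.5 CPM, with a log2 fold change of -0.19 ± 0.09 (edgeR adjusted p 0.250, and -0.12 with total count scaling). Both overlapped between the groups.

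Subfamilies were compared by their medians where 3 or more members were tested. The 4 PHD-bromodomain members, Trim24, Trim28, Trim33 and Trim66, had a median log2 fold change of -0.05, with Trim33, a partner of SMAD proteins, at 0.00 and Trim66 at -0.10. The 4 NHL members, Trim2, Trim3, Trim32 and Trim71, had a median of 0.05, or -0.06 without Trim71. Of 8 members with a COS box, which binds microtubules, 3 were tested, with a median of -0.03. Of 4 muscle members, Trim54 (-0.45 ± 0.21) and Trim72 (0.28 ± 0.22) were tested, with log2 fold changes of opposite sign, and the membrane-anchored Trim13 and Trim59 were at 0.21 ± 0.21 and 0.14 ± 0.08.

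The Trim43 copies, known from early embryos, share 58.6% to 63.3% of their transcript words. Trim43b and Trim43c were tested, with log2 fold changes of 0.48 ± 0.30 and 0.72 ± 0.39, and Trim43a was below the filter. Their sum, formed after the values had been seen, was 1.94, 1.26 and 1.29 CPM in NaCl and 2.27, 3.00 and 2.12 CPM in H89-treated tumors, with an exact permutation p of 0.1. With TMM scaling the sums overlapped (2.03 in NaCl tumor 1 and 1.99 in H89-treated tumor 3) and the exact permutation p was 0.2. Of the 69 members, 33 share no 31-base word with another member and 7 share over 20%.

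Below the filter were 22 members. Trim5, Trim42, Trim52, Trim55, Trim61 and Trim80 had 0 counts in every tumor, which allows up to 3 counts, or 0.0939 CPM in the largest and 0.111 CPM in the smallest library, for counting error alone. Trim60, Trim75 and Trim30e-ps1 had at most 1 estimated count in a tumor. Trim10, Trim15, Trim29, Trim31, Trim38, Trim50 and Trim58 had at most 8 counts. Trim9, Trim17, Trim43a, Trim63, Trim67 and Trim69 had between 1 and 19.0 counts in each tumor, among them Trim63, a ligase of wasting muscle. With no filter, the 16 members above 0 were tested too. None had an edgeR adjusted p under 0.05, and at an unadjusted p under 0.05 Trim63 (log2 fold change 2.18 ± 0.68) and Trim67 (1.67 ± 0.55) were higher, from at most 19.0 counts in a tumor. These 2 of 16 were near the share of the 13118 genes above the filter that were higher at this level, 13.1%.

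Genes of the TRIM family under other symbols were described in the same way. Of 7 (Pml, Mid1, Mid2, Mefv, Cmya5, Triml1 and Triml2), 4 were tested, all with log2 fold changes above 0 and a median of 0.26, 2 at an unadjusted p under 0.05 and none at an edgeR adjusted p under 0.05 (Mefv and Mid1 with DESeq2). Among all genes tested, 50.6% were above 0, 13.1% were higher at an unadjusted p under 0.05, and DESeq2 called 696 of 13118 higher. Mefv, which codes for the inflammasome sensor pyrin of myeloid cells, was at 1.24, 1.33 and 0.681 CPM in NaCl and 2.10, 2.50 and 2.59 CPM in H89-treated tumors. All H89-treated tumors were higher, with a log2 fold change of 1.07 ± 0.29 and an edgeR adjusted p of 0.0878. Mid1, a microtubule-bound ligase, had 0.33, Pml, the interferon-induced organizer of nuclear bodies, 0.18, and Mid2 0.05 as log2 fold changes. Cmya5 was below the filter, and Triml1 and Triml2 were at 0.

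Interferon-stimulated effectors were on the same side as the interferon-induced TRIM members. All 26 had log2 fold changes above 0 (50.6% of all genes tested), with a median of 0.73. At an unadjusted p under 0.05, 17 were higher (13.1% of all genes). At an adjusted p under 0.05, DESeq2 called 696 of all 13118 genes higher, and edgeR called 1.59% in either direction. Of the 26, DESeq2 called 13, limma 0 and edgeR 2. These 2 were Samd9l, at 48.4, 58.8 and 45.9 CPM in NaCl and 145, 92.5 and 122 CPM in H89-treated tumors (edgeR adjusted p 0.0407, higher in 3 of 3), and Ddx60, an RNA helicase, at 11.6, 14.3 and 9.78 CPM against 28.9, 21.2 and 40.9 CPM (edgeR adjusted p 0.0481, higher in 3 of 3). Samd9l rose by 1.17 ± 0.18 and Ddx60 by 1.27 ± 0.24 on the log2 scale, and neither passed with limma or when any 1 tumor was left out, nor Ddx60 with total count scaling. The list ran from 0.02 for Oasl1 and 0.25 for Rsad2 to 1.31 for Oas2. Its mean log2(CPM + 0.5) was 5.25, 5.34 and 4.76 in NaCl and 6.24, 5.42 and 6.16 in H89-treated tumors, again with tumor 2 the lowest of the H89 group and NaCl tumor 3 the lowest of all.

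**Figure D5:**
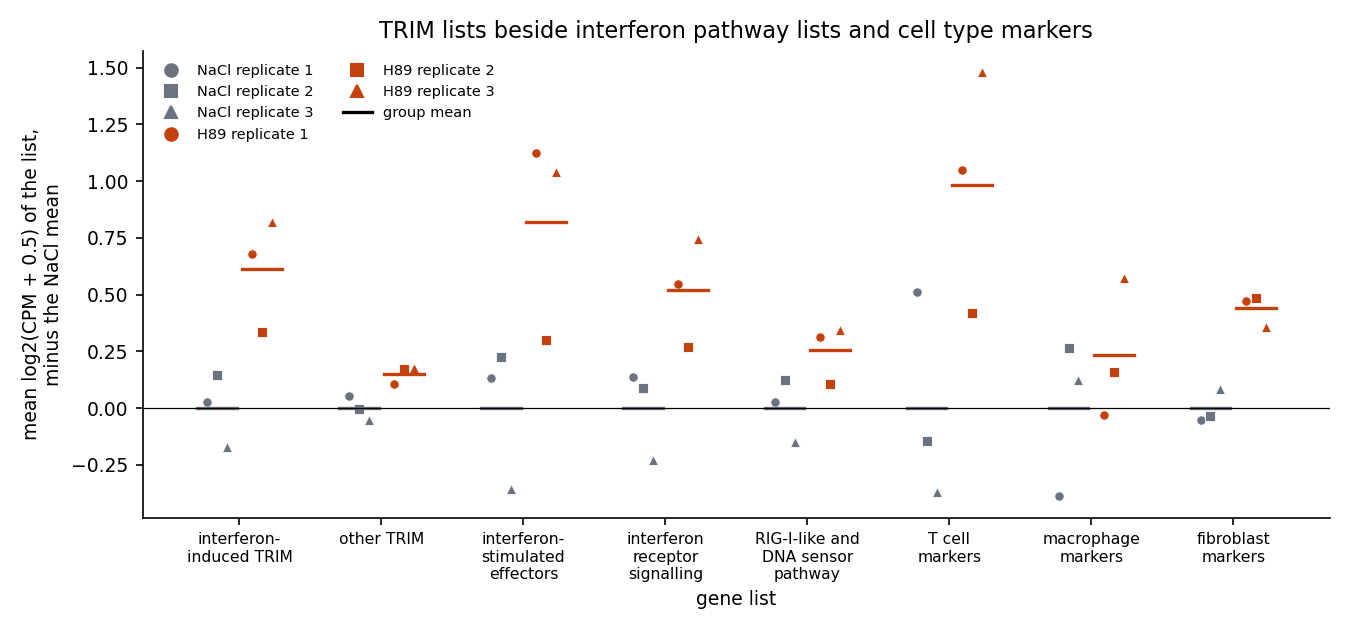
Mean log2(CPM + 0.5) of 8 gene lists in each tumor, minus the mean of the 3 NaCl tumors, with a point per tumor and a line at each group mean. The H89 mean lies 0.61 above NaCl for interferon-induced TRIM members, 0.15 for other TRIM members and 0.82 for interferon-stimulated effectors, and H89-treated tumor 2 is the lowest of its group in the first and the last of these.

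Of the genes that carry the interferon signal from receptor to nucleus, 12 of 13 had log2 fold changes above 0 with a median of 0.17, 5 at an unadjusted p under 0.05 and none at an edgeR adjusted p under 0.05 (4 with DESeq2). The shares of all genes tested were 50.6% above 0 and 13.1% higher at an unadjusted p under 0.05. DESeq2 called 696 of the 13118 higher. The transcription factor Stat2, itself induced by interferon, was highest at 1.23. The receptor chains Ifngr2 and Ifnar2 were lowest at -0.08 and 0.04.

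TRIM ligases modify many proteins of the RNA and DNA sensing pathways, and of 22 tested genes of these pathways 13 had log2 fold changes above 0 and 9 below, with a median of 0.13. At an unadjusted p under 0.05, 9 were higher and 3 lower, edgeR called 1 in each direction, DESeq2 called 4 higher and 2 lower, and limma called 0. The shares of all genes tested were 13.1% higher and 11.9% lower at an unadjusted p under 0.05, so the 3 of 22 lower were near it. By edgeR adjusted p, 1.59% of all genes were called, in either direction, and DESeq2 called 1396 of 13118, 696 of them higher. Tbk1, the kinase that phosphorylates IRF3, was at 26.9, 28.5 and 28.2 CPM in NaCl and 38.6, 40.4 and 46.6 CPM in H89-treated tumors. It rose by 0.51 ± 0.08 on the log2 scale with an edgeR adjusted p of 0.0413, and all H89-treated tumors were higher. Irf3 itself was at 19.8, 26.1 and 20.6 CPM against 13.8, 13.8 and 12.3 CPM. Its log2 fold change of -0.81 ± 0.14 had an edgeR adjusted p of 0.0427, lower in 3 of 3 H89-treated tumors. Neither Tbk1 nor Irf3 passed with limma or when any 1 tumor was left out, and Irf3 did not with total count scaling. The largest log2 fold changes above 0 were those of the sensors Zbp1 (1.16) and Ifih1 (0.84), and Ube2v1, which with Ube2n builds K63-linked chains, was at -0.43.

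Partners of TRIM28 in silencing, 8 genes, had a median log2 fold change of 0.06, with 6 above and 2 below 0. None had an edgeR adjusted p under 0.05, and DESeq2 called Setdb1, beside 696 of all 13118 genes higher. The histone methyltransferase Setdb1 (0.26, the 1 gene of the list at an unadjusted p under 0.05, beside 13.1% of all genes tested that were higher) and the remodeler Chd3 (0.17) were highest. The heterochromatin proteins Cbx3 (-0.05) and Cbx5 (-0.02) were lowest.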

How the data were processed

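The authors sequenced total RNA of 6 CT26 tumors on the BGISEQ-500 platform, and the submitters' processing notes name kallisto, DESeq2 and GRCm38. The deposited table is named TPM, but its values were read as estimated counts, since each tumor's values add up to its own total of between 27067349 and 31958793. How the authors made these values is not known. The unit was recorded gene by gene for 236 of 23557 gene columns, and the other 23321 were read in the same way. Counts were rounded and tested with edgeR 4.0.16 (R 4.3.3), TMM normalization, treatment as the only term and a mean of at least 0.5 CPM, with Benjamini-Hochberg adjustment over 13118 genes. Standard errors were taken from the F statistic of each gene, as the absolute log2 fold change over its square root. Groups came from the sample labels, the dosing schedule and the number of mice from the study's own description, positions from GENCODE M21 and promoters from RefSeq, both by symbol.

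Values in every tumor are given for tested interferon-induced members, for other tested members at an unadjusted p under 0.05 or among the 5 with the highest mean CPM, and of the pathway lists genes are named past an adjusted p of 0.05 or at the 2 extremes at either end. Of the genes this names, 1 is not reported here. Members and lists were chosen from general knowledge with earlier results of these data known. Alternatives were other filters, normalizations and tests (limma 3.58.1, DESeq2 1.42.0), the replicate number as a block, a list of 4 interferon-induced members and each tumor left out in turn.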

Additional observations from a re-analysis of the deposited data

How the results depend on the processing

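All 14 interferon-induced members kept a log2 fold change above 0 under each alternative run, with the exception of Trim56 (-0.056 without H89 replicate 3, and up to 0.21 with another tumor left out). Of 340 alternative values of single members, 311 left direction and call as they were, 18 ended the call of Trim39 or Trim24, 9 brought a call, all with DESeq2, and 2 turned the sign. The second of these was Trim28, at 0.022 with limma on quantile-normalized values. Sums of related copies kept their direction with any 1 tumor left out and with TMM scaling, which made the Trim30 and Trim43 sums overlap. Total count scaling, the TMM-scaled values and sums, the quantile-normalized values for overlap, the counts without Trim71 and the Trim43 sum were chosen after seeing the data.

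The 208 genes with an edgeR adjusted p under 0.05 became 0 with limma, whether or not values were quantile-normalized first, 1396 with DESeq2, and 0 to 12 with 1 tumor left out, where fewer samples are tested. The 2 TRIM members became 0 with limma in both forms, 11 with DESeq2 and 0 without any 1 tumor. At an unadjusted p under 0.05, interferon-induced members numbered 5 to 10 in place of 8 with 1 tumor left out. Other members higher numbered 9 in place of 4 with total count scaling, and other members lower 1 in place of 2 with a mean of at least 5 CPM, 1 with total count scaling and 1 to 4 with 1 tumor left out.

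With quantile normalization, 5 interferon-induced members in place of 10 had all H89-treated above all NaCl tumors, and with TMM or quantile scaling 7 others in place of 11. Those below numbered 4 in place of 2 with TMM scaling. The median log2 fold change of interferon-induced members went from 0.73 to 0.58 with limma, 0.51 with limma on quantile-normalized values and 0.29 with only Trim14, Trim21, Trim25 and Trim26 on the list. That of the others went from 0.04 to 0.20 with no filter (30 of 48 above 0 in place of 18 of 33), -0.0037 with a mean of at least 5 CPM (11 of 23 above 0), 0.11 with total count scaling, 0.21 with the short list, and 0.040 to 0.13 with 1 tumor left out. The median of all genes tested went from 0.0040 to 0.036 with no filter and 0.075 with total count scaling. The causes of these shifts were not tested.

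With the replicate number as a block, 0 genes and 0 TRIM members passed, and 5 other members were lower at an unadjusted p under 0.05. Tumors of the same number were hardly alike across groups, with correlations of 0.163, 0.0609 and -0.0249 over 13118 genes, which are not independent replicates, so the numbers were not treated as pairs.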
